A study of Saccharomyces cerevisiae with 12 samples.

Results

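The RNA of the nuclear genes for mitochondrial ribosomal proteins was followed in budding yeast (Saccharomyces cerevisiae) in which the cohesin loader subunit Scc2 was depleted while a plasmid supplied wild-type Scc2, a substituted form or none. The genes were chosen by name alone, as those called MRPL, MRPS, RSM or MRP with a number, without MRP8, which shares the name pattern and encodes no ribosomal protein. This gave 65 of the 7033 features of the expression table, 37 for the large subunit and 28 for the small subunit. Of the 65, 40 have a bacterial homologue, 24 are specific to mitochondrial ribosomes and RSM22 was put in neither class. RSM22 is annotated as a tRNA methyltransferase, not as a ribosomal protein, and was counted with the small subunit because of its name.

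The mitochondrial ribosome translates the few messenger RNAs of the mitochondrial genome, most of which encode core subunits of the respiratory chain and the ATP synthase. Nearly all of its proteins are encoded in the nucleus, made in the cytosol and imported, while its ribosomal RNAs and Var1 are encoded in mitochondrial DNA. In yeast the messenger RNAs of these nuclear genes are known as a main target class of Puf3, an RNA-binding protein that recognises a short sequence in the 3′ untranslated region and acts on the stability, translation and localisation of the message.

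The 12 libraries came from W303 cells of mating type a with the marker alleles can1-100, trp1-1, ade2-1 and his3-11,15 and a leu2 marker allele. All carried ura3-1::ADH1-OsTIR1, which expresses the plant F-box protein OsTIR1 from the ADH1 promoter, and a chromosomal SCC2-AID*-6FLAG allele, so that auxin leads to degradation of the chromosomal Scc2 protein in every group, controls included. A pRS413 plasmid with a HIS3 marker supplied SCC2 with a MYC tag, either unchanged (WT) or with the substitution R787G or G1242V, while the empty vector group (empty_vector in the figures) had a plasmid lacking the gene. There were 3 libraries for each of the 4 groups. Per the labels, cultures in medium lacking histidine were set back to OD600 0.1, left for 90 min and then exposed to auxin at 1 mM over 3 h, reaching OD600 values between 0.4 and 0.8. The growth protocol speaks of a duplicate for the empty vector strain, while 3 libraries are present and all were used. The a-specific transcripts MFA1, MFA2, STE2, STE6, BAR1, AGA2 and ASG7 summed to between 473 and 744 scaled TPM per library, and 4 alpha-specific transcripts to between 32.6 and 56.2. Of the latter, the a-factor receptor gene STE3 lay between 4.94 and 6.48 and MF(ALPHA)2 at or below 1.11. SAG1 lay between 22.2 and 30.6 and MF(ALPHA)1 between 3.40 and 20.0, so not all alpha-specific transcripts were near 0. The a-specific BAR1 (9.80 to 20.8) and ASG7 (9.58 to 14.9) lay below SAG1.

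A match to the Puf3 recognition sequence TGTANATA was present on the sense strand within 250 bases after the stop codon in 64 of the 65 genes (98.5%), against 910 of 6002 coding genes (15.2%) in the R64 reference sequence from RefSeq. All 37 large-subunit genes and 27 of 28 small-subunit genes held it, and RSM22 was the gene without one. On the opposite strand of the same windows, 13 of 65 genes (20.0%) held the letters, against 14.5% of all coding genes, and in the 250 bases before the start codon on the sense strand 9.23% did, against 6.66%. The sites shown here belong to the genes on which the expression results turn and to MRPS12, the gene of highest level. They run 5′ to 3′ on the gene's own strand, with the 8 matched bases in capitals.
MRP2: tacgcactTGTAAATAaatacatg
MRP4: cctaaactTGTACATAtgcccata
MRP20: ctcacactTGTATATAcggagcaa
MRPL17: caatcacaTGTAAATAtcattaaa
MRPL44: agcaagccTGTAAATAatatatat
MRPS12: caacctttTGTAAATAgcaatgac
MRPL3: tgccatttTGTAGATAgagaactc

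These sites lie at chrXVI:876217-876240 (minus strand) for MRP2, chrVIII:100432-100455 (plus strand) for MRP4, chrIV:1278502-1278525 (plus strand) for MRP20, chrXIV:171337-171360 (minus strand) for MRPL17, chrXIII:720857-720880 (minus strand) for MRPL44, chrXIV:694272-694295 (minus strand) for MRPS12 and chrXIII:323057-323080 (plus strand) for MRPL3, all in R64. MRPL3 is shown because it holds the one G at the free position of the motif. Among the 80 matches in these genes the fifth base was A in 36, T in 25, C in 18 and G in 1. In the 924 matches of other coding genes T was the most frequent, with 469, and G was found in 60.

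The base composition before the match also differed in frequency. A C stood in either of the 2 bases before the match in 62 of 80 sites (77.5%) of the mitochondrial ribosomal protein genes and in 322 of 924 sites (34.8%) elsewhere. The first match began at a median of 51 bases after the stop codon, from 8 to 139, and within 100 bases in 60 genes (93.8%), against 576 of 846 other genes with a match (68.1%). Of the 64 genes, 50 had 1 match, 12 had 2, and RSM19 and MRPL19 had 3. Where the transcripts end was not given in the sources used here, so a window after the stop codon is not the same as an untranslated region, and a match is a description of sequence, not of binding.

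**Figure D1:**
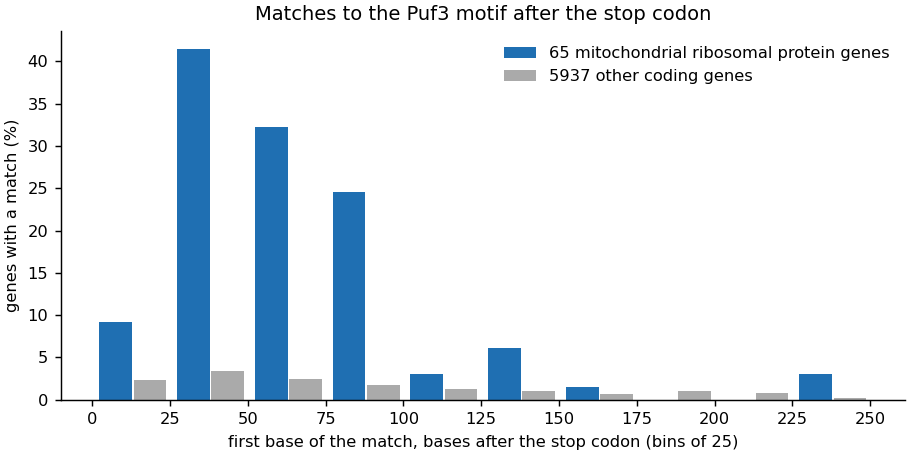
Share of genes (y axis, %) with a match to TGTANATA starting in each bin of 25 bases after the stop codon (x axis) for the 65 mitochondrial ribosomal protein genes (blue) and 5937 other coding genes (grey); a gene with several matches counts in several bins. The blue bars are highest between 26 and 50 bases, at 41.5% of the genes, and 3 further bins within the first 100 bases reach 9.23%, 32.3% and 24.6%.

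The Puf3 motif was shared with other nuclear genes of mitochondrial translation. It was found in all 12 mitochondrial ribosomal protein genes with other names (such as IMG1, YML6 and NAM9), in 13 of 13 mitochondrial aminoacyl-tRNA synthetase genes, in 9 of 12 translation factor genes, in 8 of 10 genes for ribosome assembly and in 12 of 16 genes for translational activators and related factors. Of 9 genes for transcription, replication and turnover of mitochondrial nucleic acids 4 held it. The 138 genes of cytosolic ribosomal proteins held it in 8 cases (5.80%). Promoter motifs did not separate the genes in this way. In the 250 bases before the start codon, on either strand, AATTTT stood in 36.9% of the genes against 48.6% of all coding genes, CCAAT, the core of the Hap2/3/4/5 site, in 29.2% against 35.4%, GATGAG in 15.4% against 17.0%, and TTACCCG, the core of the Reb1 site, in 13.8% against 7.03%.

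The genes lie on 14 of the 16 nuclear chromosomes, with 12 on chromosome IV, and 6 lie within 25 kb of a centromere, as do 7.13% of coding genes. MRP4 and MRPL51 overlap a gene on the opposite strand and MRPL19 one on the same strand, and since the sources do not say whether strand was used in counting, their levels are less certain. MRPL44 is the only one of the 65 with an intron in the annotation. No gene of the 65 shared its 12 values with another feature, and none was at 0 in any library.

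Before the results, the libraries were checked against their labels by SCC2 RNA, in which reads from the chromosomal and the plasmid copy are summed. The 3 WT libraries gave 120.3, 128.4 and 109.3 scaled TPM, those of R787G 86.7, 99.8 and 90.3, and those of the empty vector 12.8, 12.5 and 12.1. In the libraries labelled G1242V it was 51.2, 93.3 and 12.4. Library 3 labelled G1242V thus lay at the level of the empty vector libraries and library 1 between the groups. HIS3, the plasmid marker, stood at 2501, 1043 and 2783 in the libraries labelled G1242V, so that libraries 1 and 3 lay within the empty vector range of 2426 to 3504, while WT ranged from 797 to 901 and R787G from 873 to 1354. Every result for G1242V is therefore given for the libraries labelled so, and the calls among them are also given without library 3 and with library 2 alone. Between libraries of the same group, Spearman correlations over features lay between 0.985 and 0.995, and between libraries of different groups from 0.967 to 0.995. The read depth behind the values is unknown, since only TPM was used.

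The genes were expressed at moderate and rather even levels, measured as scaled TPM, a length-corrected share of the library's transcripts after scaling between libraries. The mean over the 12 libraries ranged from 15.5 for MRPL4 to 102.5 for MRPS12, a 6.61-fold range, with a median of 47.6. The median was 46.9 for the large subunit and 48.3 for the small subunit. The median of the 65 genes lay at the 53.5th percentile of the 6097 features tested, those with a mean TPM of 1 or more.

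MRPS12, MRPL33, RSM18 and MRP51 had the highest levels. MRPS12 encodes uS12, a protein of the decoding centre, and its 12 values lay between 94.6 and 119. MRPL33 encodes uL30 of the large subunit and ranged from 74.5 in empty vector library 3 to 118 in G1242V library 1. RSM18 encodes bS18, and MRP51 a small-subunit protein known from yeast genetics to act in translation of mitochondrial messages; their means were 92.9 and 90.4. MRPL4, MRP13, RSM26 and RSM22 had the lowest levels. MRPL4 encodes uL29, near the exit of the peptide tunnel, and ranged from 11.2 to 19.2. MRP13 had a mean of 24.2, RSM26, which belongs to a family related to superoxide dismutase, one of 24.8, and RSM22 one of 25.6. Over the 65 genes longer coding length went with a lower level, with a Spearman correlation of -0.45, against -0.12 over all 5679 tested coding genes; this is a correlation across genes within the same libraries, and genes are not independent replicates.

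**Figure D2:**
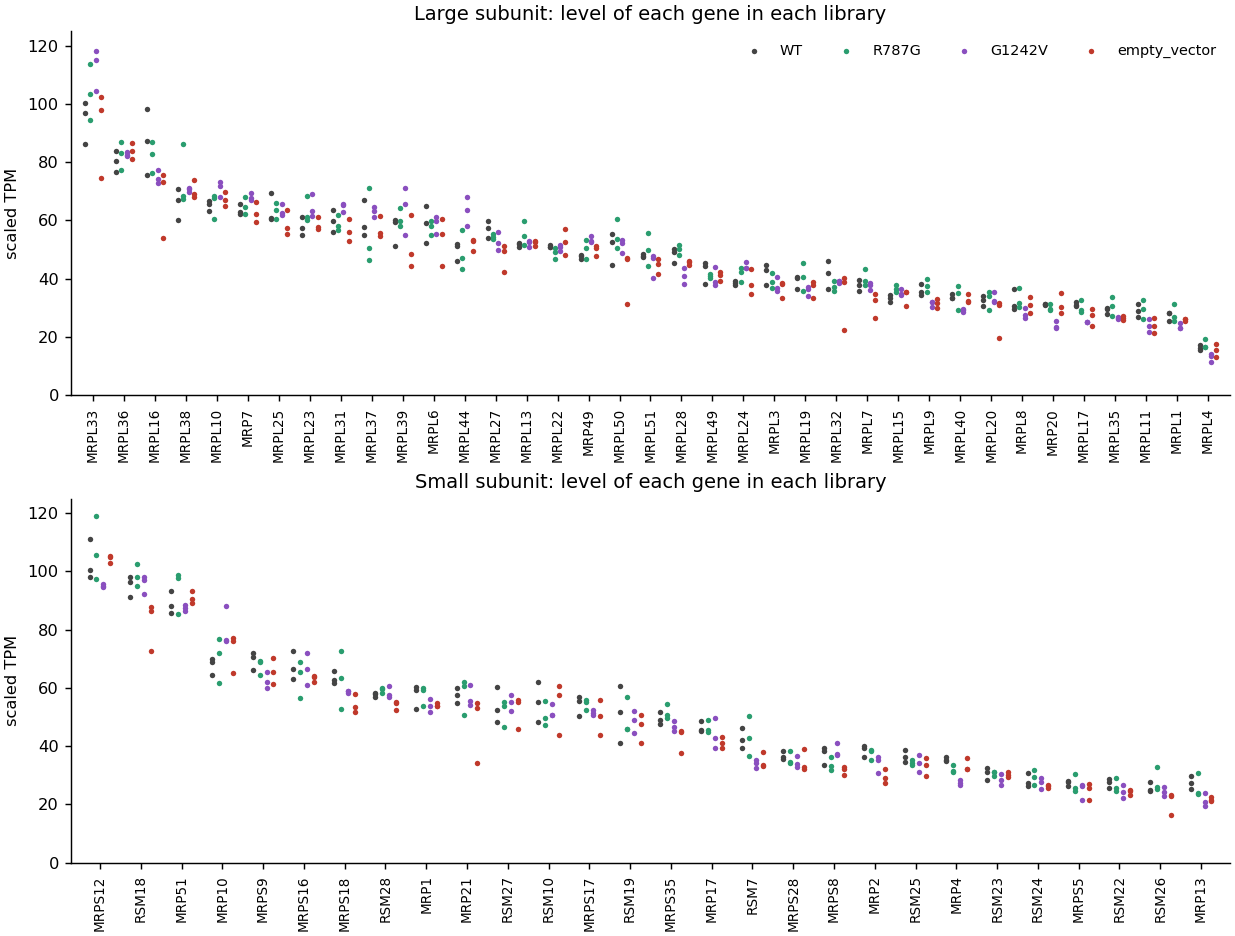
Scaled TPM (y axis) of each of the 37 large-subunit genes (upper panel) and 28 small-subunit genes (lower panel) in each of the 12 libraries, 1 point per library, coloured by plasmid group and ordered by mean level. For most genes the 4 groups overlap; MRPL4 (mean 15.5) is the lowest and MRPS12 (mean 102.5) the highest.

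Summed over the 65 genes, the WT libraries held 3223 ± 149 scaled TPM, with 3252 ± 110 in R787G, 3162 ± 66.8 in the libraries labelled G1242V and 3012 ± 155 in the empty vector group (SD, n = 3). The sum in each library was 3238, 3068 and 3364 in WT, 3152, 3369 and 3236 in R787G, 3141, 3236 and 3107 in G1242V, and 3082, 3118 and 2834 in the empty vector libraries. The groups overlap, in bulk cultures fewer expressing cells and less RNA per cell cannot be told apart, and empty vector library 3 was the lowest of the 12. As a share of the TPM as deposited, the genes took from 0.305% to 0.336% of a library, and there the highest share was that of empty vector library 3.

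The large and small subunits kept nearly the same balance in all libraries. The ratio of the mean level of large-subunit genes to that of small-subunit genes was 0.966, 0.935 and 0.941 in WT, 0.984, 0.979 and 0.940 in R787G, 1.01, 0.982 and 0.988 in G1242V, and 0.972, 0.963 and 0.970 in the empty vector libraries. The 3 libraries labelled G1242V lay above the 3 WT libraries, but the R787G group overlaps both. On the log2 scale, the median departure of large-subunit genes from their own means minus that of small-subunit genes was between -0.05 and 0.10, with the highest value in empty vector library 3.

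The spread of the members over the 12 libraries was that of other genes of like level. The SD of log2(scaled TPM + 1) over the 12 libraries had a median of 0.12 among the 65 genes and 0.12 among the 3770 features within their range of mean level. Genes that left their subunit's median furthest were MRPL32, MRPL50, MRPL4 and MRP4. MRPL32, a large-subunit protein known in yeast to mature by cleavage through the m-AAA protease of the inner membrane, stood at 22.5 scaled TPM in empty vector library 3 and between 35.9 and 45.9 in the other 11 libraries. MRPL50, which encodes bL9, stood at 31.2 in that library and between 44.9 and 60.5 elsewhere. MRP4 and MRP20 departed upwards in the same library relative to the medians of their subunits. By this measure MRP4 stood 0.47 higher there on the log2 scale than its mean over the 12 libraries. Its own level there, 36.0 scaled TPM, lay within the WT range of 34.9 to 36.2. MRP20 stood at 34.9 there, the highest of its 12 values. Relative to the subunit medians, empty vector library 3 thus departs in both directions for single genes.

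**Figure D3:**
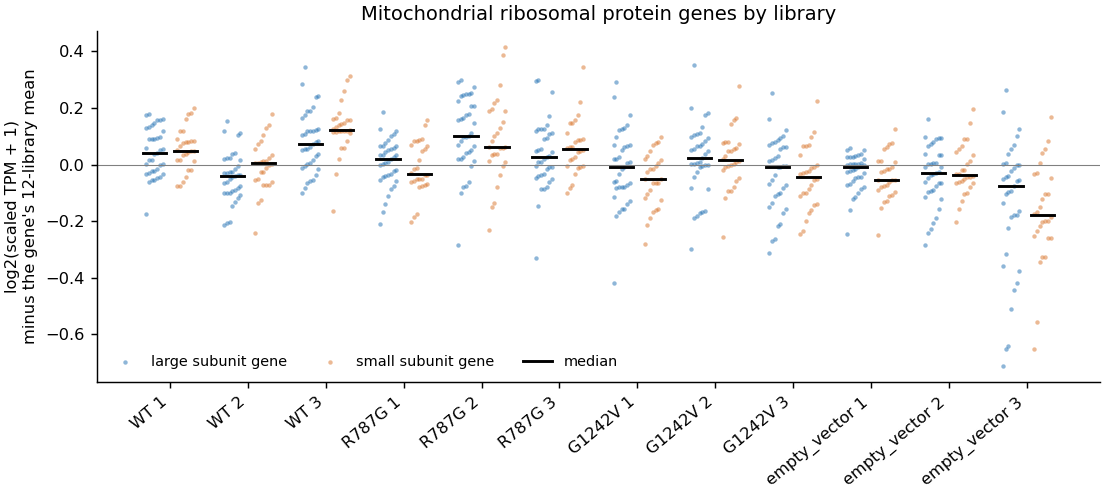
Departure of each gene from its own mean over the 12 libraries (y axis, log2(scaled TPM + 1)) by library (x axis), with large-subunit genes in blue and small-subunit genes in orange, and black bars at the medians. The medians of empty vector library 3 are the lowest, at -0.08 for the large and -0.18 for the small subunit, and 14 of its 65 genes lie above their own mean.

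The first comparison, empty vector against WT, asks how cells whose plasmid lacks SCC2 differ from cells whose plasmid carries the wild-type gene. Most genes of the mitochondrial ribosome had slightly lower values in the empty vector libraries: 53 of 65 lay below 0, as did 51.5% of all features, with a median log2 fold change of -0.09 against -0.01 for all features, but with TPM as deposited the median was 0.01, against 0.09 for all features. The median was -0.08 for the large subunit, with 28 of 37 below 0, and -0.12 for the small subunit, with 25 of 28 below 0. Without empty vector library 3 the median over the 65 genes was -0.08, with 49 below 0. MRP2 was the only gene called, at an adjusted p under 0.05 by limma with Benjamini-Hochberg adjustment, so 1 of 65 fell and none rose. Of all 6097 features 2.64% were called, 1.51% lower and 1.13% higher. The 65 genes have a median coding length of 714 bases, against 1212 for all tested coding genes. A trend on coding length over all coding genes was also removed from each library, a setting chosen after seeing the data. All folds but that of RSM22 then lay higher. MRPS16, the gene at the median, moved from -0.09 to -0.04 and RSM22 from -0.170 to -0.177. The part of length in the median was not tested further.

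MRP2 (YPR166C, chromosome XVI, 876282 to 876629, minus strand) encodes uS14, a small-subunit protein with a bacterial homologue. Its level was 39.9, 39.4 and 36.1 scaled TPM in WT and 29.0, 32.2 and 27.4 in the empty vector libraries. R787G libraries stood at 35.1, 38.6 and 38.5, and those labelled G1242V at 30.9, 35.2 and 36.4. All 3 empty vector values lay below all 3 WT values, with group means of 29.5 ± 2.40 and 38.5 ± 2.06 (SD, n = 3). The log2 fold change was -0.37 with a standard error of 0.08 and an adjusted p of 0.0491 (limma), close to the threshold. The call was lost on leaving out any of the WT or empty vector libraries, R787G library 1 or 2, or G1242V library 1, with adjusted p from 0.0520 to 0.152, and it held without the other 3 libraries, with adjusted p from 0.0353 to 0.0393; it was kept under 4 of 9 other settings of the processing, with adjusted p from 0.0336 to 0.0958 (limma).

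Groups that do not overlap were one-sided in this comparison. In 18 of the 65 genes every empty vector value lay below every WT value and in none above, while 18.4% of all features tested lay below and 17.3% above. Of the 65 genes 16 had an unadjusted p under 0.05, that is 24.6%, against 28.7% of all features. Among the 18, MRP13, RSM26 and RSM7 had the next lowest folds after MRP2, at -0.33, -0.30 and -0.28 on the log2 scale, with adjusted p of 0.0879, 0.166 and 0.121 (limma). MRP13 encodes mS44, a protein specific to mitochondria, and stood at 27.3, 25.4 and 29.7 scaled TPM in WT and at 22.6, 21.4 and 21.1 in the empty vector group. RSM7 encodes uS7, at the head of the small subunit, with 39.4, 42.0 and 46.1 in WT and 38.0, 33.1 and 33.6 in the empty vector group. RSM26 stood at 24.8, 24.5 and 27.5 in WT and at 23.0, 23.4 and 16.4 in the empty vector group, and without empty vector library 3 its fold was -0.14 (adjusted p 0.430, limma). The smallest differences among the 18 were those of RSM28, MRPL51, MRPL35 and MRP17, at -0.09, -0.11, -0.14 and -0.17 on the log2 scale, none of them called.

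MRPL7, RSM28 and RSM18 were the 3 genes whose empty vector values lay below those of all 9 other libraries, as did 3.10% of all features, and no gene lay above them, as did 2.36%. RSM18 stood at 87.8, 86.3 and 72.7 scaled TPM in the empty vector libraries, against 91.4 to 102.6 in the other 9. RSM28, known from yeast as a suppressor of defects in translation of the COX2 message, stood at 55.2, 54.7 and 52.5, against 56.8 to 60.7. MRPL7, which encodes uL5, stood at 34.9, 32.6 and 26.5, against 35.7 to 43.3. None of the 3 was called against WT, with adjusted p of 0.0990 for MRPL7, 0.232 for RSM28 and 0.101 for RSM18 (limma). The log2 fold was -0.27 for MRPL7 and -0.21 for RSM18, and without empty vector library 3 it was -0.16 and -0.13 (adjusted p 0.210 and 0.216, limma).

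**Figure D4:**
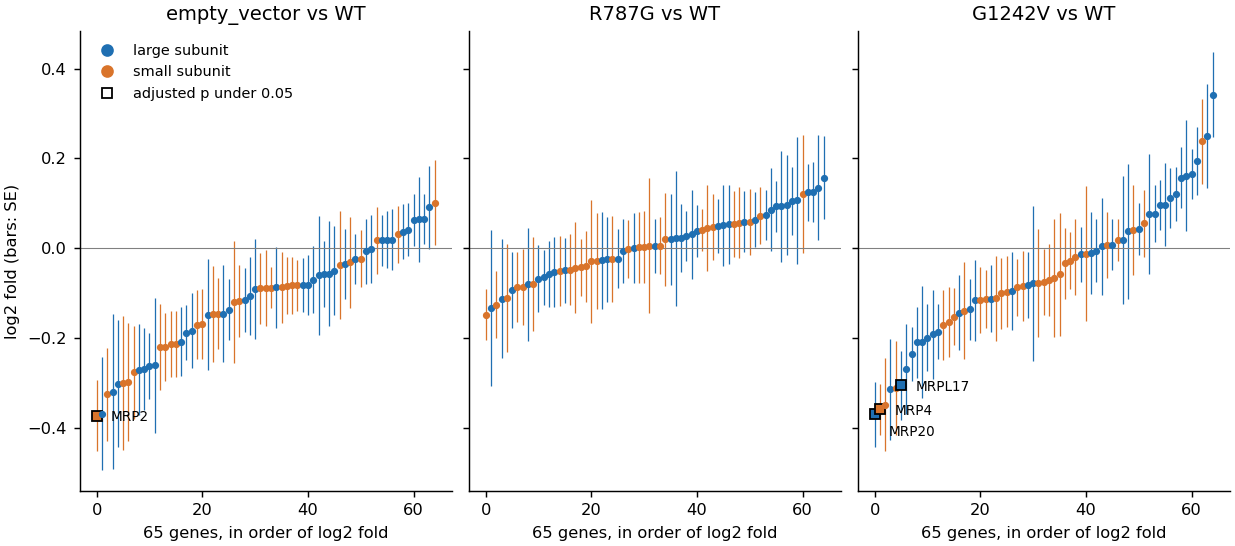
Log2 fold change with its standard error (y axis) of the 65 genes in 3 comparisons against WT, in order of fold within each panel (x axis: rank), with squares for genes at an adjusted p under 0.05 (limma). MRP2 is called in the empty vector comparison, MRP20, MRP4 and MRPL17 in G1242V and none in R787G; with TPM as deposited none is called in any of the 3.

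R787G against WT asks whether the first substitution changes these levels. No gene was called, and the smallest adjusted p was 0.654 for MRP4 (limma); 1 of 65 genes had an unadjusted p under 0.05, against 6.87% of all features, and of the 6097 features 0% were called. The median log2 fold change was 0.01, against 0.00 for all features, with 36 genes above 0 and 29 below, where 49.2% of features lay below; with TPM as deposited it was -0.05, as was that of all features. Groups did not overlap in 4 genes, 2 lower and 2 higher in R787G, against 5.77% and 7.35% of all features. MRP4 and MRPL22, which encodes uL22 at the wall of the peptide tunnel, were the lower pair, at -0.15 and -0.06 on the log2 scale. RSM28 and MRPL15, a protein related to ribonuclease III, were the higher pair, at 0.04 and 0.12. MRP4 stood at 31.3, 31.1 and 33.4 scaled TPM in R787G and at 36.2, 35.3 and 34.9 in WT, a difference with a 95% interval on the log2 scale from -0.27 to -0.02 before adjustment.

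G1242V against WT asks the same of the second substitution, with the doubt on its libraries given above. MRP20, MRP4 and MRPL17 fell and no gene rose, so 3 of 65 were called, all lower, against 4.58% of all features called, 2.59% lower and 1.98% higher. The median log2 fold change over the 65 genes was -0.08, against 0.01 for all features, with 43 genes below 0 against 48.4% of features, and kept its sign with TPM as deposited (-0.10). It was -0.01 for the large subunit, with 20 of 37 genes below 0, and -0.08 for the small subunit, with 23 of 28 below 0. The median was -0.04 without WT library 3, -0.05 without G1242V library 3 and -0.03 with G1242V library 2 alone, where no gene was called.

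MRP20 (YDR405W, chromosome IV, 1277646 to 1278437, plus strand) encodes uL23, at the exit of the peptide tunnel, where the ribosome meets the inner membrane. It stood at 30.8, 31.3 and 31.5 scaled TPM in WT and at 25.4, 23.3 and 23.1 in the libraries labelled G1242V. R787G libraries stood at 29.3, 29.7 and 31.3 and empty vector libraries at 30.1, 28.4 and 34.9, so the 3 G1242V values lay below the other 9. The log2 fold change against WT was -0.37 with a standard error of 0.07 and an adjusted p of 0.0262 (limma). Without WT library 1, 2 or 3 or G1242V library 3 the adjusted p was 0.0992, 0.0644, 0.0782 and 0.135 (limma), with folds from -0.38 to -0.35.

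MRP4 (YHL004W, chromosome VIII, 99219 to 100403, plus strand) encodes uS2 of the small subunit and lies 5183 bases from the centromere. It stood at 36.2, 35.3 and 34.9 scaled TPM in WT, at 27.4, 26.6 and 28.5 in G1242V and at 32.2, 32.3 and 36.0 in the empty vector libraries. Here too the G1242V values lay below all 9 others, the next lowest being an R787G library at 31.1. The log2 fold change was -0.36 with a standard error of 0.06 and an adjusted p of 0.0149 (limma). It lost the call without WT library 1 (adjusted p 0.0824) or G1242V library 3 (0.0609), with folds of -0.34 and -0.38.

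MRPL17 (YNL252C, chromosome XIV, 171441 to 172286, minus strand) encodes mL46, a protein specific to mitochondrial ribosomes. It stood at 31.0, 30.7 and 32.0 scaled TPM in WT. In G1242V the mean was 25.1 ± 0.120 scaled TPM (SD, n = 3) with a highest value of 25.2, and the empty vector libraries at 27.7, 23.7 and 29.7 spanned it. The log2 fold change was -0.31 with a standard error of 0.08 and an adjusted p of 0.0494 (limma), and the call was lost on leaving out any of the WT or G1242V libraries, R787G library 3 or empty vector library 1, with adjusted p from 0.0507 to 0.171. It held under 2 of 9 other settings of the processing, with adjusted p from 0.0187 to 0.630 (limma), while MRP20 and MRP4 each kept theirs under 7 of the 9 and lost it with TPM as deposited (0.123 and 0.105) and with G1242V library 2 alone. With G1242V library 2 alone, in which SCC2 RNA was near that of R787G, the folds were -0.40 for MRP4, -0.40 for MRP20 and -0.31 for MRPL17, with adjusted p of 0.205, 0.373 and 0.630 (limma), where the lone library is assumed to vary like the others. In MRP20 and MRPL17 library 2 lay between libraries 1 and 3 and in MRP4 it was the lowest of the 3, while SCC2 RNA differed between them; the part of SCC2 RNA in these results was not tested.

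Non-overlapping groups were found in both directions in G1242V. In 15 genes every G1242V value lay below every WT value and in 8 above, against 19.6% and 20.8% of all features. After MRP20 and MRP4, the lowest folds were those of MRP13 and MRPL4, at -0.35 and -0.31 on the log2 scale (adjusted p 0.0754 and 0.113, limma). The highest were those of MRPL44, MRPL33, MRP10 and MRPL24, at 0.34, 0.25, 0.24 and 0.19 (adjusted p 0.0650, 0.194, 0.146 and 0.136, limma), and none passed the test. MRPL44, which encodes mL53, stood at 52.0, 45.9 and 51.1 scaled TPM in WT and at 58.2, 68.1 and 63.5 in G1242V, above the other 9 libraries, whose highest value was 56.6. MRP10, a small-subunit protein with twin cysteine motifs, stood at 68.7, 70.0 and 64.5 in WT and at 76.4, 88.0 and 76.1 in G1242V. Besides MRP20 and MRP4, the genes MRPL1, MRPL28 and MRPS12 lay below all 9 other libraries in G1242V, which makes 5 of 65 genes below, against 3.00% of all features, and 1 above, against 3.72%. No gene of the 65 lay below or above all 9 other libraries in WT, as did 1.82% and 2.02% of features, or in R787G, as did 0.443% and 0.689%. Of the 65 genes, 17 had an unadjusted p under 0.05 (26.2%), against 26.9% of all features.

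The folds in G1242V were ordered by coding length. Across the 65 genes the Pearson correlation of the log2 fold with log10 coding length was -0.50 and the Spearman correlation -0.44, while the 4087 other coding genes within the same range of lengths gave -0.14 and -0.13. Empty vector and R787G against WT gave Pearson correlations of -0.07 and -0.09 among the 65 genes. G1242V against the empty vector gave -0.46 among the 65 and -0.25 among the other coding genes. R787G against G1242V gave 0.48 and 0.21, so there the other genes shared the order more clearly than against WT. The 32 genes shorter than 714 bases had a median log2 fold of -0.00 in G1242V and the 33 others one of -0.11. Both subunits showed it, with a Pearson correlation of -0.51 over 37 large-subunit genes and -0.48 over 28 small-subunit genes. The 3 highest genes, MRPL44, MRPL33 and MRP10, have coding lengths of 297, 261 and 288 bases, and MRP20, MRP4 and MRPL17 have 792, 1185 and 846. These are correlations across genes that share the same libraries, given as a description.

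Each library labelled G1242V showed this order. The Pearson correlation between a gene's departure from its own mean and log10 coding length was -0.44, -0.51 and -0.39 in libraries 1, 2 and 3 among the 65 genes, and -0.22, -0.21 and -0.13 among the other genes. In WT the values among the 65 were 0.30, 0.36 and 0.12. In empty vector library 3 it was 0.29 among the 65 and 0.30 among the others, so length moved there with all genes alike. With a trend on coding length over all coding genes removed from each library, a setting chosen after seeing the data, MRP4 and MRP20 kept their calls at -0.33 and -0.36 (adjusted p 0.0151 and 0.0325, limma), MRPL28, which encodes mL40, was called at -0.28 (0.0466), and MRPL17 was not at -0.29 (0.0628). MRPL44 then stood at 0.24 (adjusted p 0.151, limma), MRPL33 at 0.13 (0.294), MRP10 at 0.13 (0.244) and MRPL24 at 0.21 (0.0919), and the part of length in the other differences was not tested further.

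**Figure D5:**
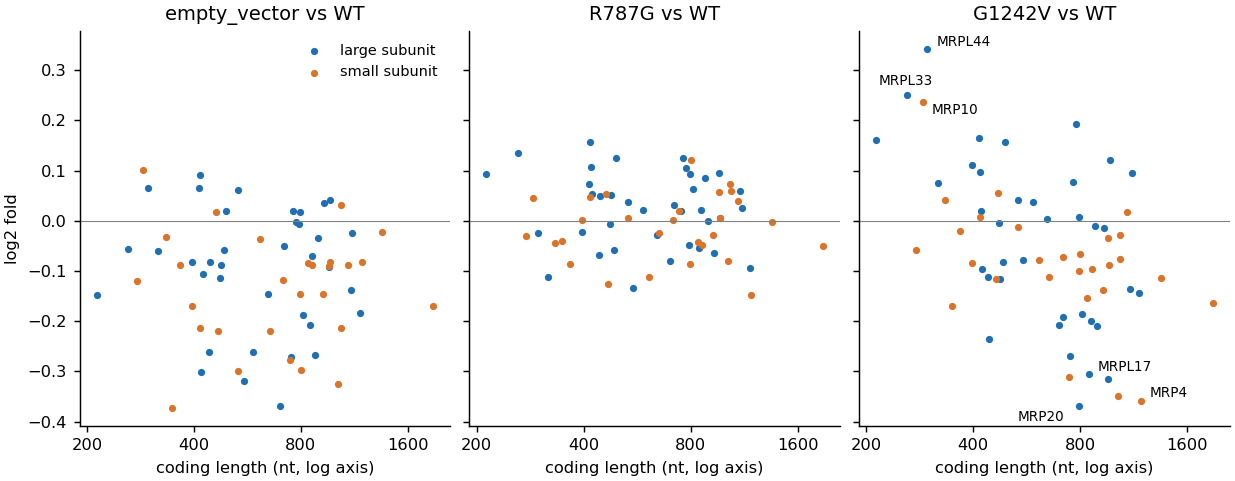
Log2 fold change against WT (y axis) by coding length in bases (x axis, log scale) for the 65 genes in 3 comparisons, with large-subunit genes in blue and small-subunit genes in orange. In G1242V shorter genes tend to lie higher (Pearson correlation -0.50), with MRP20 (-0.37) and MRP4 (-0.36) the lowest; in the empty vector and R787G panels the correlation is -0.07 and -0.09.

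The remaining comparisons set the substitutions against the empty vector and against each other, and share their libraries with those above. No gene was called in R787G against the empty vector, where 2.36% of all features were called by limma and 14 of the 65 genes had an unadjusted p under 0.05, against 23.1% of features. The median log2 fold was 0.11 (0.07 without empty vector library 3), against 0.00 for all features, with 54 genes above 0 and 11 below, where 48.9% of features lay below; with TPM as deposited it was -0.05, against -0.15 for all features. In 14 genes every R787G value lay above every empty vector value and in none below, against 12.5% and 11.3% of features. MRP2 came nearest to a call, with a log2 fold of 0.33 and an adjusted p of 0.0507 (limma), followed by MRPL9, which encodes uL3, at 0.25 (0.0585). Without R787G library 1, which lay lowest for MRP2 in its group, 5 genes were called higher, namely MRPL35, MRPL9, RSM7, MRPS18 and MRP2. The share of all features called in that fit is not given here, so the 5 are not set against a background.

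G1242V against the empty vector also called none, with 0.148% of all features called, 15 of the 65 genes at an unadjusted p under 0.05 and 18.5% of features likewise (limma). The median log2 fold was 0.06, with 22 genes below 0 against 48.4% of features. It was 0.0072 without empty vector library 3 and 0.034 without G1242V library 2. With TPM as deposited it was -0.06 against -0.11 for all features, and with the length trend removed -0.01. Its highest value over 9 other settings of the processing was 0.10, and on leaving out 1 library 0.07. Libraries 1 and 3 labelled G1242V lay within the empty vector range of HIS3, and library 3 at its level of SCC2 RNA. Groups did not overlap in 14 genes above and 7 below, against 14.4% and 11.7% of features. MRP20 and MRP4 had the smallest adjusted p, 0.0847 and 0.0874 (limma), at -0.36 and -0.28 on the log2 scale. R787G against G1242V called none of the 65 genes and 0% of features (limma), with 16 genes and 20.1% of features at an unadjusted p under 0.05. The median was 0.07, with 21 genes below 0 against 50.6% of features, and 13 genes not overlapping above and 3 below, against 11.0% and 12.5%; with G1242V library 2 alone the median was 0.02, and without R787G library 2 it was 0.04. Without R787G library 1, 4 genes were called higher in R787G than in G1242V, namely MRPL35, MRPL28, RSM7 and MRPL40, again without the share of all features called in that fit.

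By origin, the 2 classes gave like values. Against WT, the 40 genes with bacterial homologues had median log2 folds of -0.09 in the empty vector, 0.01 in R787G and -0.08 in G1242V, and the 24 mitochondria-specific genes -0.09, 0.01 and -0.05. Called genes were MRP2, MRP20 and MRP4 in the first class and MRPL17 in the second. The difference between the classes was not tested.

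The 12 mitochondrial ribosomal protein genes with other names were measured beside the 65. All 12 had log2 folds below 0 in the empty vector against WT, with a median of -0.09, and 11 of 12 in G1242V, with a median of -0.13, where 51.5% and 48.4% of all features lay below 0. None was called in the empty vector, where MNP1, which encodes bL12 of the stalk, had the lowest fold at -0.51 (adjusted p 0.0701, limma). MNP1 stood at 62.2, 52.1 and 66.1 scaled TPM in WT and at 50.3, 45.3 and 31.8 in the empty vector libraries, and without empty vector library 3 the fold was -0.32 (adjusted p 0.135, limma). YML6, which encodes uL4, fell in G1242V: its level was 43.3, 44.7 and 40.6 scaled TPM in WT and 35.9, 36.3 and 31.7 in G1242V, with a log2 fold of -0.30, a standard error of 0.07 and an adjusted p of 0.0325 (limma), where 2.59% of all features were called lower. Without G1242V library 3 its fold was -0.24 (adjusted p 0.154) and with library 2 alone -0.23 (0.630), and the call held on leaving out 7 of the 12 libraries in turn (adjusted p from 0.0246 to 0.154, limma). The empty vector libraries stood between, at 38.1, 38.8 and 42.7.

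VAR1, the ribosomal protein gene of mitochondrial DNA, was measured at low levels. It stood at 2.83, 2.33 and 3.65 scaled TPM in WT, 2.68, 4.72 and 3.79 in R787G, 2.76, 3.73 and 2.66 in G1242V and 2.08, 1.93 and 0.371 in the empty vector libraries. The 3 empty vector values lay below all others, with a log2 fold on the log2(scaled TPM + 1) scale of -0.75 against WT (adjusted p 0.130, limma), which did not pass the test. Without empty vector library 3, the lowest of the 12, the fold was -0.38 (adjusted p 0.303, limma). The mitochondrial ribosomal RNAs were not analysed here.

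Other genes of mitochondrial gene expression were taken from lists by role. In the empty vector against WT, MBA1, the receptor that holds the mitochondrial ribosome at the inner membrane, was the one gene called among 16 translational activators and related factors: 28.5, 29.7 and 28.9 scaled TPM in WT and 24.8, 23.5 and 22.7 in the empty vector libraries gave a log2 fold of -0.29 and an adjusted p of 0.0491 (limma), where 1.51% of all features were called lower. It was higher in R787G than in the empty vector, at 0.29 (adjusted p 0.0370, limma), where 106 of 6097 features were called higher. On leaving out each of the 12 libraries in turn, each of these calls on MBA1 held in 3 cases, with adjusted p from 0.0295 to 0.153 and from 0.0267 to 0.122 (limma). In the libraries labelled G1242V, MSS51, an activator of translation of the COX1 message, fell by 0.36 on the log2 scale (adjusted p 0.0402, limma), from 49.6, 44.9 and 49.3 to 39.9, 35.3 and 36.5 scaled TPM. Of all features 2.59% were called lower in that comparison. Without G1242V library 3 the fold of MSS51 was -0.34 (adjusted p 0.168) and with library 2 alone -0.43 (0.453), and the call held on leaving out 5 of the 12 libraries in turn (adjusted p from 0.0241 to 0.168, limma). None of the 12 translation factors, 13 aminoacyl-tRNA synthetases, 10 assembly factors and 9 genes for mitochondrial nucleic acid metabolism was called in any of the 6 comparisons (limma). Against WT, genes in these lists at an unadjusted p under 0.05 in the empty vector numbered 1 of 12, 0 of 13, 1 of 10 and 3 of 9, against 28.7% of all features, and in G1242V 2, 0, 5 and 0, against 26.9%. Among the mating-type markers BAR1 was called, higher in R787G than in the empty vector at 0.83 on the log2 scale (adjusted p 0.0370, limma). There 106 of 6097 features were called higher. The call on BAR1 held on leaving out 3 of the 12 libraries in turn (adjusted p from 0.0034 to 0.125, limma).

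Coding genes other than the 65 that hold the Puf3 motif, among them the 12 mitochondrial ribosomal protein genes with other names, were also compared. The 827 such genes tested had median log2 folds against WT of -0.04 in the empty vector, -0.00 in R787G and -0.02 in G1242V, and the 4787 tested coding genes without it -0.00, 0.00 and 0.01. PUF3 RNA itself stood between 48.5 and 65.2 scaled TPM in the 12 libraries and was not called in any comparison. The 4 genes that were called among the 65 differ at the fifth base of the motif, with A in MRP2 and MRPL17, C in MRP4 and T in MRP20. The 138 cytosolic ribosomal protein genes had median folds of -0.00, -0.02 and 0.03 in the same order. RPS9A was the one called, lower in the empty vector at -0.63 (adjusted p 0.0491, limma), where 1.51% of all features were called lower. The call held on leaving out 3 of the 12 libraries in turn (adjusted p from 0.00615 to 0.177, limma). The medians of the 138 genes by library ran from -0.27 in R787G library 3 to 0.24 in empty vector library 2. This was a wider range than that of the mitochondrial ribosomal genes, from -0.12 in empty vector library 3 to 0.12 in WT library 3.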

How the data were processed

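Stranded libraries from RNA without ribosomal RNA were read as single 50 bp reads, per the labels' protocols. The deposited table holds TPM, which the authors computed with RSEM; bcl2fastq 2.17, STAR, edgeR and the sacCer3 build are named in the submitters' processing notes without roles, and strand use in counting is not given in the sources used here. TPM keeps no depth, so no intervals from counts are given. Of 7036 features, 3 with shifted fields were left out. TPM was scaled by median-of-ratios factors (0.903 to 1.19) over 5421 features with a mean of 10 or more and no 0. Tests used log2(scaled TPM + 1) of the 6097 features whose mean TPM reached 1, so folds of low genes are understated, with limma 3.58.1 (R 4.3.3; variance trend, two-sided, all 12 libraries, group as the only term, 8 residual plus 3.20 prior degrees of freedom) and Benjamini-Hochberg adjustment per comparison at 0.05. Exact permutation of 3 against 3 libraries cannot give a p below 0.1. Deviations of same-numbered libraries of WT and R787G correlated at 0.199, 0.146 and 0.468 over features. Differently numbered libraries were not correlated, so pairing by replicate number was not established. With replicate number as a block, none of the 65 genes was called in R787G against WT either. The procedure was tested on simulated data with independent noise and planted changes larger than the folds of these genes, so recovery of folds of their size was not tested. The genes, lists and rules were chosen with earlier results of these data known. Genes named are those called, the 4 highest and 4 lowest folds among non-overlapping genes against WT, the 4 extremes of level and the 4 of widest range; others were chosen after their values were seen. Sequences and coordinates are from RefSeq's R64.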

Additional observations from a re-analysis of the deposited data

How the results depend on the processing

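The number of genes called in the empty vector against WT was 0 in place of 1 without a filter on low values, with TPM as deposited, with replicate number as a block, without a variance trend and with only the 2 groups in the fit, and 0 to 2 on leaving out 1 library (0 without any of the WT or empty vector libraries, R787G library 1 or 2, or G1242V library 1). In G1242V against WT it was 0 in place of 3 with TPM as deposited or G1242V library 2 alone, 9 with only the 2 groups (3 higher, 6 lower), and 0 to 4 on leaving out 1 library (0 without WT library 1 or G1242V library 3, 1 without WT library 2 or 3). In R787G against the empty vector it was 1 (RSM18) in place of 0 with the length trend removed, a setting chosen after seeing the data. It was 0 to 5 there on leaving out 1 library, and 0 to 4 in R787G against G1242V. The shares of all features called in these other fits are not given here, so the counts, the 9 included, are not set against a background.

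With TPM as deposited the median log2 fold of the 65 genes was 0.010, -0.052, -0.048 and -0.064 in the empty vector and R787G against WT and in R787G and G1242V against the empty vector, while the medians of all features moved to 0.09, -0.05, -0.15 and -0.11; relative to these the values were -0.08, 0.00, 0.10 and 0.05. The median of G1242V against the empty vector was -0.0093 with the length trend removed, and that of R787G against G1242V 0.016 with G1242V library 2 alone. On leaving out 1 library the medians ran from -0.13 to -0.07, -0.02 to 0.04 and -0.10 to -0.04 for the empty vector, R787G and G1242V against WT, from 0.07 to 0.13 and 0.01 to 0.07 for R787G and G1242V against the empty vector, and from 0.04 to 0.09 for R787G against G1242V. The cause of these differences was not tested.

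Over all group pairs the deviations of same-numbered libraries correlated above 0.1 in 8 of 18 pairs, with values from -0.26 to 0.47. Differently numbered libraries were not correlated, so these values cannot show whether replicate numbers pair the libraries. With the replicate block, MRP2 and MRPL17 had adjusted p of 0.0634 and 0.0693 (limma), and no gene was called in the empty vector against WT (0 against 1).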
